A study of Arabidopsis thaliana with 6 samples.

Results

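The 297 regions described here were listed as enriched in the anti-HA immunoprecipitate (IP) of HA-PRR7 in experiment 2 and were called in both of its deposited lists. The lists carry the letters KC and TL, which no source used here explains. They held 380 and 355 regions in the order named, of 1563 over the 4 lists of the series. A KC region entered the set when it overlapped a TL region by at least 1 bp. These were 297 of 380 KC regions (78.2%, exact 95% interval 73.7% to 82.2%) and 296 of 355 TL regions (83.4%, interval 79.1% to 87.1%), since 1 TL region overlapped 2 KC regions. Of the 297, 294 lay on nuclear chromosomes and 3 on the mitochondrial genome. A further 83 regions stood in KC alone and 59 in TL alone. Both lists belong to 1 IP, so their agreement is not replication, and no test between conditions was possible. The regions were called for high IP signal, so the gap between IP and control within them describes the calls.

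Chromatin was taken from whole Arabidopsis thaliana seedlings aged 15 days, raised on Murashige and Skoog medium with agar (0.8%) and sucrose (2%) in cycles of 12 h light, at 70 µmol m-2 s-1, and 12 h dark. The IP came from line 151, in which HA-PRR7 is driven by the PRR7 promoter in the prr7-3 mutant, so all values rest on a single transgenic line. The sources used here give neither the library that served as control in experiment 2 nor the hour of harvest, nor whether separate plants were grown for each experiment. The lists of HA-PRR7 and of untagged prr7-3 from experiment 1, with 685 and 143 regions, are set beside these regions only where they overlap, and no list of the prr7-3 IP of experiment 2 was used. Whether that IP was the control is not known.

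PRR7 is a pseudo-response regulator of the plant circadian clock, a family of proteins that follow each other through the day and repress transcription. It acts in the repression of the morning MYB genes CCA1 and LHY and feeds clock timing into light, temperature and metabolic responses. The HA epitope allows its chromatin to be recovered with an antibody to the tag. Chromatin IP also recovers background DNA, which the control library measures at each region.

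The control was thin. From the deposited tag enrichments, 1 control tag stood for 11.8 IP tags in KC and for 12.3 in TL. A uniform genome would put 10.1 IP tags and 0.858 control tags into 300 bp in KC, and 10.2 IP tags and 0.828 control tags in TL. The median nuclear region of the 294 had 79 IP tags in KC (lowest 37, highest 1054, quartiles 62.25 and 114) and 81 in TL (lowest 42, highest 1072). Their median width was 273 bp in KC and 276 bp in TL. Control tags numbered 0 in 150 of these regions in KC (51.0%, interval 45.2% to 56.9%), 1 in 106, 2 in 31 and 3 or more in 7, with a highest value of 4. In TL they numbered 0 in 165, 1 in 95, 2 in 21 and 3 or more in 13, with a highest value of 6. Single regions therefore carried almost no information on the control, and the summed tags were used to set IP against control.

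Over the nuclear regions, 30922 IP tags stood against 191 control tags in KC. After scaling for depth, IP exceeded control 13.7-fold (exact conditional binomial interval 11.9 to 15.9, counting error only). In TL, 31000 IP tags stood against 182 control tags, a ratio of 13.9 (interval 12.0 to 16.1). The control tags came to 0.652 per 300 bp in KC (interval 0.563 to 0.752), below the 0.858 of a uniform genome. The same held in TL, at 0.614 (interval 0.528 to 0.710) against 0.828. The lowest deposited fold of IP over control signal in these regions was 2.56 in KC and 2.57 in TL. The low control may thus follow in part from the calls, which was not tested. Taken singly, the interval of the ratio lay above 1 in 238 of the 294 nuclear regions in KC, where 77.1% of all 380 KC regions passed that mark. With control counts under 3 raised to a floor of 3 tags, equal to 35.4 IP tags in KC, the median ratio over the 297 regions was 2.23.

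The 3 mitochondrial regions did not share this gap in tags. They held 744 IP tags against 71 control tags in KC, a ratio of 0.888 (interval 0.696 to 1.15), and 1270 against 125 in TL, a ratio of 0.828 (interval 0.688 to 1.00). Their control tags came to 7.27 per 300 bp in KC (interval 5.68 to 9.18). The region from 8954 to 10432 of the mitochondrial genome held 412 IP tags and 34 control tags in KC, and 879 and 81 in TL. Among the 297 regions of both lists, the set over which all ranks below are counted, it ranked 7 by KC IP tags and 2 by TL IP tags, with IP tags within counting error of the scaled control (ratio 1.03, interval 0.723 to 1.504, in KC). It was also the 1 region of the 297 that overlapped a region of untagged prr7-3 in experiment 1. The region from 193155 to 194019 held 170 IP and 25 control tags in KC (ratio 0.576, interval 0.377 to 0.916), and 235 and 36 in TL. The region from 3298 to 3881 held 162 and 12 in KC, and 156 and 8 in TL. No gene is assigned to these regions.

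The highest region by IP tags lay between CCA1, a MYB factor that is expressed at dawn, and PSI-P (chromosome 2, 19245184 to 19245740, TAIR10), within 1000 bp of a gene. It held 1054 IP tags and 1 control tag in KC, and 1072 and 0 in TL. The KC ratio to the scaled control was 89.4 (interval 16.0 to 3533), and in TL, with no control tag, the lower limit of the ratio was 23.6. It ranked 1 by the tags of either list, and also by IP tags per length of region, with 189 per 100 bp in KC. LHY, the close relative of CCA1, ranked 9 by the tags of either list (chromosome 1, 37745 to 38256), with 299 IP tags and 0 control tags in KC and 305 and 1 in TL.

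LNK3 and LNK2 belong to a family of clock coactivators that work with the REVEILLE MYB factors. A region inside LNK3 (AT3G12320, chromosome 3, 3923122 to 3923805) held 654 IP tags in KC and 656 in TL, each with 1 control tag, and ranked 2 and 3. Its KC ratio was 55.4 (interval 9.92 to 2193). The LNK2 region (AT3G54500, chromosome 3, 20178959 to 20179375) held 224 and 223 IP tags with 0 control tags in both lists. The lists gave nearly equal tags at both genes.

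Among other clock genes, the region between GI, a clock and flowering regulator, and PAB3 (chromosome 1, 8060606 to 8061208) ranked 4 in KC and 5 in TL with 486 and 471 IP tags and 1 control tag in each. PRR9, the pseudo-response regulator that peaks earliest in the day, had 381 and 378 IP tags and 0 control tags (chromosome 2, 19232278 to 19232663). It ranked 8 by tags and 3 by tags per 100 bp in KC, over a region of 386 bp. The region between AT3G46630 and LUX, a component of the evening complex, held 255 and 263 IP tags with 0 control tags in KC and 1 in TL (chromosome 3, 17182467 to 17183057). PRR5, a further pseudo-response regulator, had 170 and 165 IP tags at a maximum more than 1000 bp from any gene (chromosome 5, 8359698 to 8360127).

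Of the other high regions, 1 lay beside BBX28 (AT4G27310), a B-box protein gene (chromosome 4, 13674804 to 13675296). It ranked 3 in KC and 4 in TL with 615 and 638 IP tags, 0 control tags in both lists and a lower limit of the ratio of 14.1 in each. AGL44, a MADS-box gene known in the root response to nitrate, had 436 and 410 IP tags and 1 control tag in each list (chromosome 2, 6018017 to 6018660). The region between AT5G15950 and AT5G15940 had 413 and 402 IP tags (chromosome 5, 5205100 to 5205899). It was the widest of the 294 nuclear regions in KC, at 800 bp, and stood at rank 6 by tags and 17 by tags per 100 bp.

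The next regions by tags lay at genes of metabolism, light harvesting and stress. MIPS1, which encodes the enzyme that makes inositol phosphate, had 285 and 282 IP tags with 2 and 3 control tags in KC and TL (chromosome 4, 18471975 to 18472581). LHCB1.1 and LHCB1.3, which encode antenna proteins of photosystem II, shared a region with 262 and 251 IP tags (chromosome 1, 10475926 to 10476248). Among the nuclear regions of both lists it was the highest with no overlap in HA-PRR7 experiment 1. DDB2, a gene of ultraviolet damage recognition, and cPT4 shared a region with 260 and 261 IP tags, over 289 bp in KC, and ranked 12 by tags and 5 by tags per 100 bp in KC (chromosome 5, 23733698 to 23733986).

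A region inside AT2G30760 had 249 and 235 IP tags, and 1 between AT1G19500 and AT1G19490 had 225 and 239. LHCA1, an antenna protein of photosystem I, had 214 and 202 at a maximum inside the gene, NF-YA4, a subunit of a CCAAT-binding factor, had 213 and 218, and ELIP1, an early light-induced protein, had 206 and 190. ATL5, of a family of RING-type ubiquitin ligases, had 202 and 222, and EXO70H7, an exocyst subunit gene next to the heat shock gene HSP18.2, had 202 and 216. These closed the 20 nuclear regions with at least 200 IP tags in KC. Together the 20 held 7135 of the 30922 nuclear IP tags (23.1%), 6 regions reached 400 tags and 97 reached 100, so most of the set lay far below CCA1.

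Ranks 22 to 30 held IP tags from 199 down to 170 in KC. They included AT1G73470, AT3G55570 with AT3G55580, PIF4, a bHLH factor of growth in shade and warmth, SIG4, a plastid sigma factor gene next to ZIF1, CAK4, a kinase that activates cyclin-dependent kinases, and HY5, a bZIP protein that promotes greening of seedlings. A region on chromosome 1 at 15880295 to 15880681 had 174 and 175 IP tags and 0 control tags in both lists with no protein-coding gene within 3000 bp, which was so for 2 of the 294 nuclear regions. At the other end, the region with the fewest IP tags lay between UGP2 and RVE1 (chromosome 5, 5695284 to 5695412), with 37 IP tags in KC and 44 in TL and 0 control tags in both. Regions inside AT4G16765 next to ACX1, an enzyme gene of fatty acid beta-oxidation, between PEX11E, a peroxisome gene, and AT3G61080, between RTFL17 and GATL3, and inside BT4 each held 43 IP tags in KC and 44 to 49 in TL. The lowest of these tag counts were just above the 35.4 IP tags that 3 control tags stand for.

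**Figure D1:**
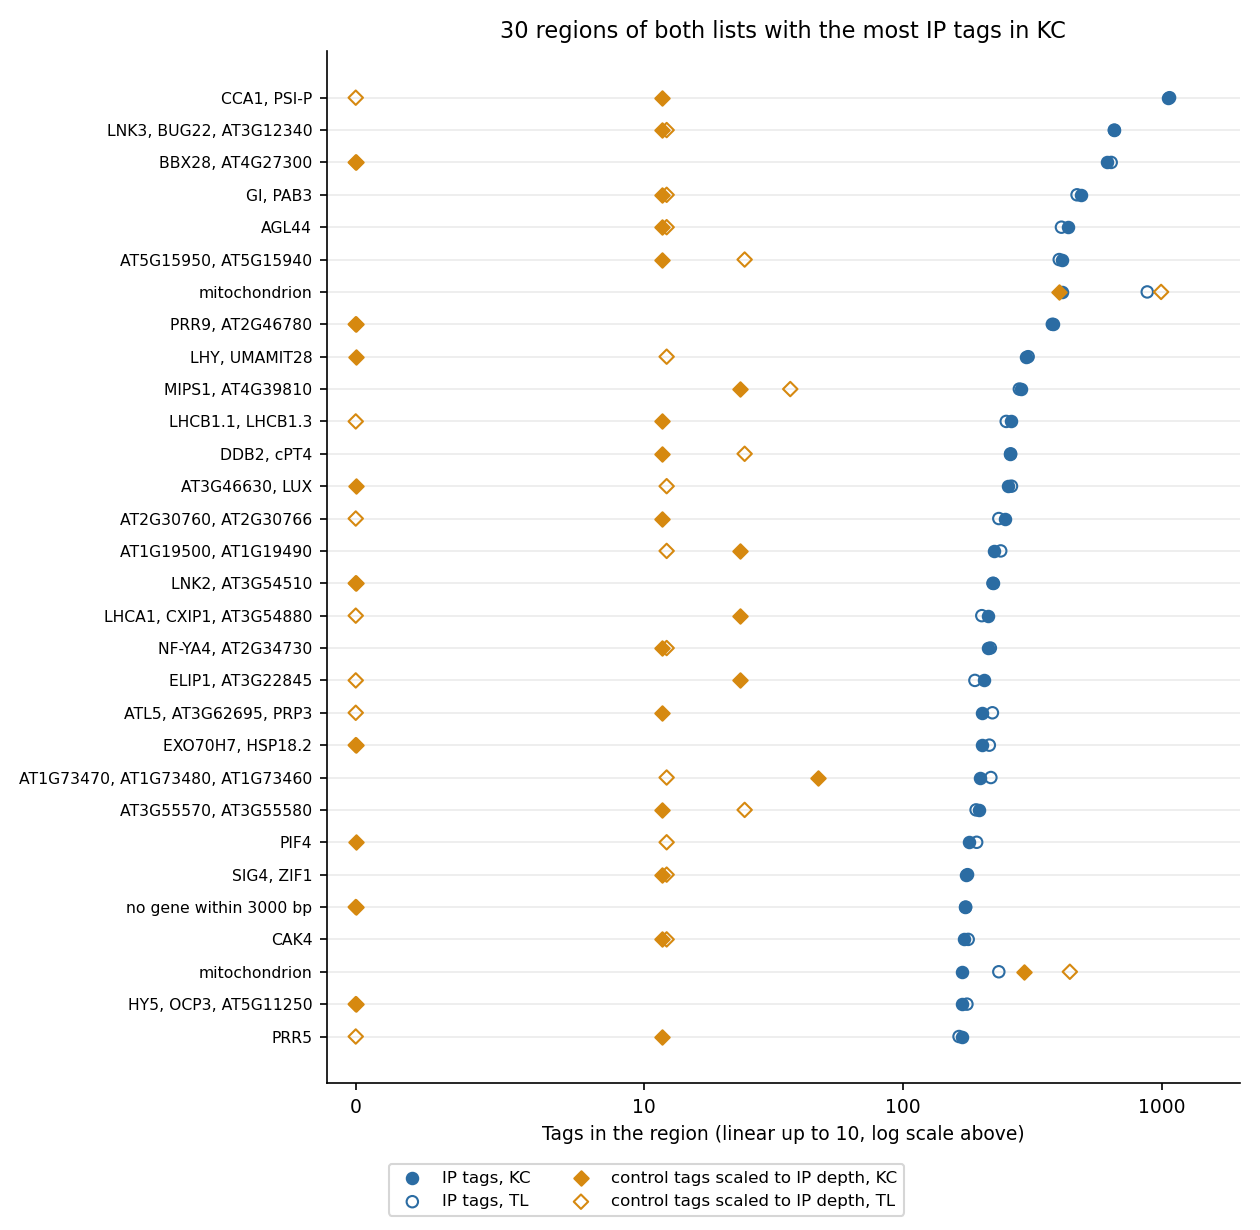
IP tags (circles) and control tags multiplied by the depth ratio (diamonds) in the 30 regions of both lists with the most IP tags in KC, with KC filled and TL open, on an axis that is linear up to 10 and logarithmic above. In every nuclear region shown the IP lies above the scaled control, whereas the mitochondrial region ranked 7 has 412 IP tags and 34 control tags in KC, which are alike after scaling.

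IP tags depended on the width called, with a Spearman correlation of 0.824 between IP tags and width over the 294 nuclear regions in KC. The regions share a library, so this is a description. Ranked by IP tags per 100 bp, 13 of the 20 highest were among the 20 highest by tags. CCA1, BBX28, PRR9, LNK3 and DDB2 with cPT4 led that order, at 189, 125, 98.7, 95.6 and 90.0 IP tags per 100 bp in KC. The mitochondrial region that ranked 7 by tags held 27.9 per 100 bp and ranked 202.

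The lists agreed more closely on IP tags than on fold enrichment. The fold is the ratio of the IP signal to the control signal at the maximum, where the authors' caller raised a control signal under 1 to 1. Over the 294 nuclear regions, which come from the same IP and may share reads, IP tags in KC and TL had a Spearman correlation of 0.953, and folds 0.392. The tags counted were not identical, and control tags were equal in both lists in 130 regions (44.2%). ANT1, named after its values were seen, had the same borders in both lists. It held 126 IP tags and 0 control tags in KC, and 129 and 2 in TL. IP tags were within 1.2 times of each other in 276 regions (93.9%, interval 90.5% to 96.3%), and more than 2 times apart in 2. The maxima lay within 10 bp of each other in 238 (81.0%). Folds were more than 2 times apart in 80 regions (27.2%, interval 22.2% to 32.7%). In all 80 the control signal was above 1 in exactly 1 list, and in 77 of them neither list had more than 3 control tags. In the 189 regions with a control signal of at most 1 in both lists, the correlation of folds was 0.905 and the fold in KC over that in TL ran from 0.768 to 1.66. The top of the order was alike: 16 of the 20 highest folds in KC were among the 20 highest in TL, against 17 for IP tags.

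The largest shifts of rank among nuclear regions came at AT1G73470 (chromosome 1, 27627578 to 27628064). It held 199 IP tags and 4 control tags in KC, and 219 and 1 in TL. Its fold was 2.56 in KC, the lowest of the 297, and 33.8 in TL, where it ranked 12. The IP tags put it at rank 22 in KC and 19 in TL.

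A region inside AT4G21926 had 163 and 152 IP tags and folds of 3.68 and 27.4 in KC and TL, with 2 and 0 control tags. AT3G56360 had 147 and 159 IP tags and folds of 3.55 and 23.5, with 3 and 0 control tags. At ATL5 the folds were 6.15 and 29.2, with 1 and 0 control tags, and at LHCA1 6.99 and 29.5, with 2 and 0. Shifts of rank were taken between fold and IP tags in KC, so low KC folds follow in part from that choice. The folds of all these regions were low in KC and high in TL, while the IP tags were close. The reverse was seen at PIF4, with 180 and 193 IP tags, 0 and 1 control tags and folds of 27.4 and 10.6, and at RPT2, a gene of phototropism, with 156 and 135 IP tags, 1 and 3 control tags and folds of 28.2 and 6.09.

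Apart from the mitochondrial regions, BRI1, the brassinosteroid receptor gene, had as many control tags in KC as AT1G73470, with 4, against 92 IP tags. In TL it had 3 against 91. Its KC ratio to the scaled control was 1.95 with an interval that includes 1 (0.736 to 7.31), and its fold was 4.35 in KC and 10.2 in TL.

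The 2 regions whose IP tags differed more than 2 times between the lists had different borders, and were singled out after their values were seen. One of the RVE2 regions held 81 IP tags in KC, and an adjoining KC region held 142, while a single TL region with 212 tags covered both. The other lay inside AT3G02460, next to SAMDC, with 73 IP tags over 300 bp in KC and 152 over 613 bp in TL.

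**Figure D2:**
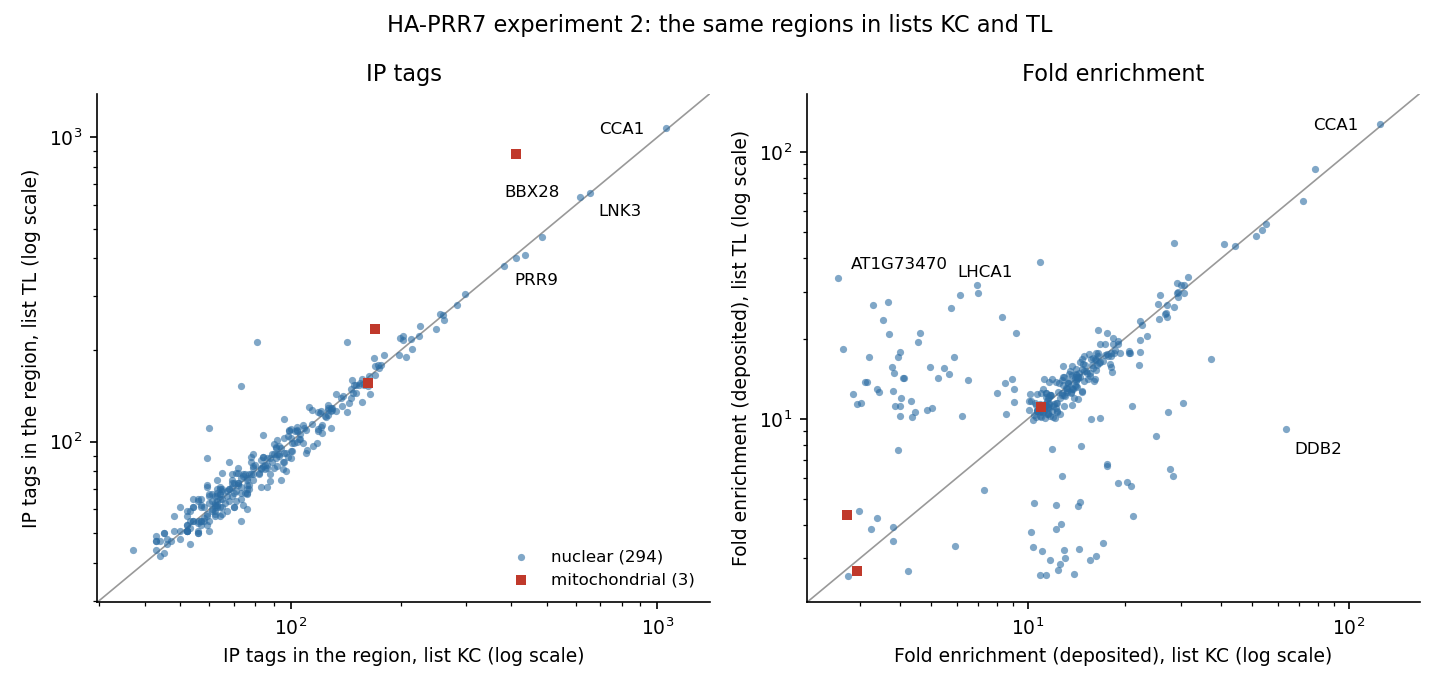
IP tags (left) and deposited fold enrichment (right) of the regions in both lists, with KC on the horizontal and TL on the vertical axis, both logarithmic, and the diagonal marking equal values. IP tags follow the diagonal (Spearman 0.953 over 294 nuclear regions), while 80 nuclear regions have folds more than 2 times apart, such as AT1G73470 with 2.56 in KC and 33.8 in TL.

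Regions in 1 list only were mostly weak. Against a median of 79 IP tags in KC and 81 in TL for the nuclear regions in both lists, the 78 nuclear regions of KC alone had 59 (lowest 39, highest 389) and the 56 of TL alone had 55.5 (lowest 38, highest 128). No region was listed below an IP signal of 10.02. The IP signal at the maximum was under 12, close to that limit, in 25.9% of the nuclear regions in both lists by KC values (interval 20.9% to 31.3%) and in 24.8% by TL values. It was that close in 75.6% of the KC-only regions (interval 64.6% to 84.7%) and in 83.9% of the TL-only regions (interval 71.7% to 92.4%). The pooled ratio to the scaled control was 13.7 in KC and 13.9 in TL for the regions in both, with overlapping intervals for KC alone, at 14.5 (interval 10.3 to 21.2), and for TL alone, at 12.9 (interval 8.51 to 20.6). The mitochondrial regions of 1 list, 5 in KC and 3 in TL, had ratios of 1.04 and 0.663.

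Some strong regions stood in KC alone. A region inside LNK4, of the same family as LNK3, held 389 IP tags and 0 control tags at a signal of 31.2 (chromosome 5, 2167093 to 2167719), which would rank it above PRR9 among the regions of both lists. AT1G69570 had 246 IP tags and 1 control tag at a signal of 23.6, and a region of both lists with 61 tags lay within 3000 bp of it. LHCB1.5 and LHCB1.4, further antenna genes of photosystem II, shared 197 IP tags and 0 control tags at a signal of 33.9, and BTI1 had 170 and 0 at 24.6. The mitochondrial region from 361019 to 363210 led the KC-only set with 582 IP tags and 50 control tags, and after LNK4 and AT1G69570 came mitochondrial regions from 345555 and from 352120, with 224 and 211 IP tags against 21 and 17 control tags.

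In TL alone, the highest 3 by IP tags were mitochondrial, with 173, 159 and 156 IP tags against 13, 18 and 29 control tags. EXL2, an exordium-like gene, followed with 128 IP tags and AT1G75800 with 113, with signals of 11.02 and 10.2. LNK1 had 112 IP tags, 1 control tag, a signal of 18.4 and a fold of 4.87. These nuclear TL-only regions were weaker than the highest KC-only ones. LNK1, LHCB1.5 with LHCB1.4, and BTI1 were named after their values were seen.

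Region numbers run in the order of IP signal in both lists and have gaps. In KC the numbers reach 408 and 28 are not listed, and in TL they reach 395 and 40 are not listed. Number 1 is missing from both lists. In that order its signal was at least that of CCA1, the highest listed, at 124.9 in KC and 127.7 in TL. KC numbers 7, 12, 21 and 28 and TL numbers 8 and 12 are missing as well. What the missing numbers held is not known. TL numbers 17, 18, 23, 29 and 48 fall at signals between 34.1 and 23.6, the levels of the strong KC-only regions. Whether those numbers are the LNK4, LHCB1.5, BTI1 and AT1G69570 regions was not tested.

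PRR7 itself had a KC-only region inside the gene with 151 IP tags and 0 control tags (chromosome 5, 638561 to 639069). It overlapped a region of HA-PRR7 experiment 1 and also a region of untagged prr7-3. The line carries a PRR7 transgene, and transgene and native DNA cannot be told apart in these lists. PRR7 too was named after its value was seen.

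**Figure D3:**
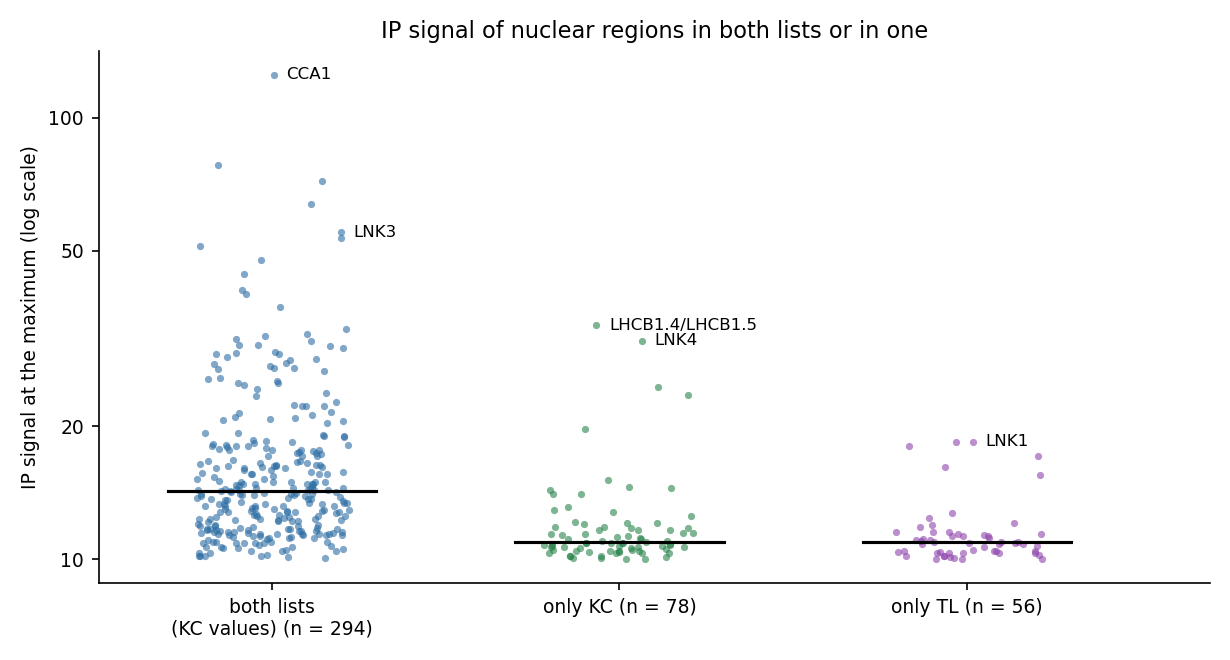
IP signal at the maximum (logarithmic axis) of nuclear regions in both lists (294, KC values), in KC only (78) and in TL only (56), with 1 point per region and a line at the median. The single-list regions crowd near the lowest listed signal of 10.02, with LNK4 (31.2) and LHCB1.4 with LHCB1.5 (33.9) standing above in KC.

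Maxima lay beside genes more than their share of the genome. Of the 294 nuclear maxima, 149 (50.7%, interval 44.8% to 56.5%) fell between genes with a protein-coding gene no more than 1000 bp away, a kind of position that makes up 20.4% of the genome. Maxima inside genes numbered 96 (32.7%, interval 27.3% to 38.3%; genome 54.1%), and 49 lay farther away (16.7%; genome 25.5%). Of the 20 highest nuclear regions by IP tags, 14 had their maximum between genes and within 1000 bp of one. Of the 149, 56 had a gene within 1000 bp on both sides. The single-list regions were alike, at 47.4% in KC alone (interval 36.0% to 59.1%) and 46.4% in TL alone (interval 33.0% to 60.3%). The gene table used gives no strand, so upstream and downstream could not be told apart.

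The pooled ratio to the control was 11.7 for regions inside genes (interval 9.26 to 15.1), 14.4 for those near a gene (interval 11.8 to 17.8) and 16.7 for those farther away (interval 11.2 to 26.1) in KC, with overlapping intervals. Chromosomes 1 to 5 held 80, 35, 57, 37 and 85 of the nuclear regions. Chromosome 5 held 28.9% of the regions and 23.1% of the protein-coding genes, and chromosome 2 held 11.9% and 15.7%.

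Some genes had several maxima. In 20 cases neighbouring maxima of the set lay within 3000 bp of each other. CBF1 and CBF3, neighbouring activators of the cold response, UGP2 and RVE2 each had 3 regions within reach. The CBF2, CBF3 and CBF1 cluster on chromosome 4 held 5 regions with 169, 86, 155, 65 and 72 IP tags in KC and 188, 88, 156, 70 and 73 in TL, in order along the chromosome. The first and the third of them stood above the rest in both lists.

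Of 27444 protein-coding genes, 519 held a maximum of the set or had one within 3000 bp, a background of 1.89%. Genes reached only by KC-only regions came to 0.452%, and only by TL-only regions to 0.324%. Against that background, 61 of 164 genes on 10 lists had a region, and 71 of the 294 nuclear regions lay beside one of them. The lists were drawn up with results of these data known, and genes of a list can share a region, so the counts are descriptions.

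Light-harvesting genes had the highest share, with 12 of 18 (66.7%, interval 41.0% to 86.7%) beside 11 regions. Their median was 133 IP tags in KC, against 79 over the set, and 7 of the 11 were in the highest of 4 groups of like size into which the nuclear regions were split by KC IP tags. Besides those named above, LHCB4.2 had 149 and 154 IP tags, LHCB2.1 had 146 and 139, LHCA4 had 142 and 125, and LHCB5 had 133 and 143. The LHCB4.2 maximum was nearer to AT3G08930, and the LHCB5 maximum lay inside AT4G10330. LHCA3 had 122 and 113 at a maximum inside the gene. Lower values were 97 and 92 at LHCB1.2, 95 and 86 at LHCB6, 79 and 83 at LHCB3 and 63 and 68 at LHCB2.3. The pooled ratio to the control was 18.2 (interval 8.81 to 45.3) from 7 control tags. None of the 11 overlapped a region of HA-PRR7 experiment 1, against 22.8% of the 294 nuclear regions. LHCA2, LHCB2.2, LHCB4.1 and LHCB4.3 had no region in either list.

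Core clock genes had 13 of 30 (43.3%, interval 25.5% to 62.6%) beside 17 regions, with a median of 146 IP tags in KC, 12 regions in the highest of the 4 groups and 8 among the 30 highest. Their pooled ratio to the control was 47.0 (interval 23.8 to 109), from 4435 IP tags against 8 control tags. The REVEILLE genes, MYB relatives of CCA1, made up the lower part of this list. RVE1 had regions of 146 and 37 IP tags in KC, RVE2 of 142, 98 and 81, RVE7 of 144 and 57, and RVE4 1 of 68. ASG4 (AT1G01520), which overlaps AN at this maximum, had 139. In KC each was below every region of CCA1, LHY, LUX, GI, LNK2, LNK3, PRR5 and PRR9. Both RVE1 regions of the set were nearer to UGP2 than to RVE1. Within 1000 bp of RVE1 lay a KC-only region of 57 IP tags and a TL-only region of 58. The RVE2 region of 142 was nearer to AT5G37270, and the RVE7 region of 57 to AT1G18335. TOC1, PRR3, RVE8, BOA, ELF3, ELF4, ZTL, FKF1, LKP2, CHE, LWD1 and LWD2 were among the 14 members with no region in either list.

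Light signalling genes had 7 of 32 (21.9%, interval 9.28% to 40.0%), and 4 of 32 with a limit of 1000 bp or with the nearest gene alone. Besides PIF4, HY5 and RPT2, PHYB, the main red-light receptor of green plants, had 120 and 124 IP tags in a region shared with AT2G18780, and HYH, the relative of HY5, had 121 and 126. HYH had 2 control tags in each list and folds of 3.69 and 20.8. RUP2, a repressor of ultraviolet-B signalling, had 99 and 108 IP tags in a region it shares with PHS1, with 3 control tags in KC and 0 in TL. HFR1, an atypical bHLH factor of shade responses, had neighbouring regions of 76 and 64 IP tags in KC, both nearer to AT1G02350. The cryptochromes, the phototropins, PHYA and PIF1, PIF3, PIF5 and PIF7 had none.

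B-box genes had 6 of 13 (46.2%, interval 19.2% to 74.9%). BBX28 stood far above the others. BBX29 had 151 and 153 IP tags, BBX24 had 129 and 126, BBX19 had 96 and 92, BBX25 had 94 and 95, and BBX31 had 45 and 43. The BBX25 maximum lay inside AT2G31370.

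Photoperiodic flowering genes had 7 of 17 (41.2%, interval 18.4% to 67.1%) beside 11 regions of 50 to 118 IP tags in KC, with a median of 79, equal to that of the set. They were CDF1, CDF2 and CDF3, which repress CONSTANS, AT1G69570, and the CONSTANS-like genes COL1, COL2 and COL5. COL2 was highest, with 118 and 99 IP tags, and CDF1 had maxima inside and beside the gene with 85 and 62 in KC. CO and FT had no region in either list. None of the 11 regions overlapped one of HA-PRR7 experiment 1. However, 10 of them lay in the lower 3 groups by tags, where 9.46% to 17.8% of all regions did so. The KC-only region at AT1G69570, which is not among the 11, held 246 IP tags and did overlap a region of that experiment.

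Cold and dehydration genes had 5 of 11 (45.5%, interval 16.7% to 76.6%). Beyond the CBF cluster these were the galactinol synthase genes GOLS3, with 70 and 73 IP tags, and GOLS1, with 44 and 42. The GOLS1 region had 1 control tag in each list and folds of 2.76 and 2.57, among the lowest of the set. Plastid sigma, ferritin and light stress genes had 6 of 12 (50%, interval 21.1% to 78.9%). After ELIP1 and SIG4 came SIG5, a plastid sigma factor gene, with 148 and 144 IP tags, and the ferritin genes FER1, FER3 and FER4, with 122, 80 and 45 in KC and 107, 84 and 50 in TL. The SIG5 maximum was nearer to AT5G24130.

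Chlorophyll synthesis genes had 4 of 12 (33.3%, interval 9.92% to 65.1%). CHLH, the large subunit of magnesium chelatase, had 130 and 129 IP tags, HEMA1, an early enzyme of the pathway, had 92 and 83, CAO, which makes chlorophyll b, had 64 and 70, and PORB, a protochlorophyllide reductase, had 62 and 61. The abscisic acid phosphatases had 1 of 9, HAI1, with 74 and 78 IP tags at a maximum more than 1000 bp from any gene, and 0 of 9 with a limit of 1000 bp or with the nearest gene alone. None of 10 housekeeping genes had a region in both lists (interval up to 30.8%). However, UBQ10 and GAPC1, 2 of the 10, had KC-only regions of 68 and 103 IP tags. Over all protein-coding genes, 0.452% were reached only by KC-only regions.

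**Figure D4:**
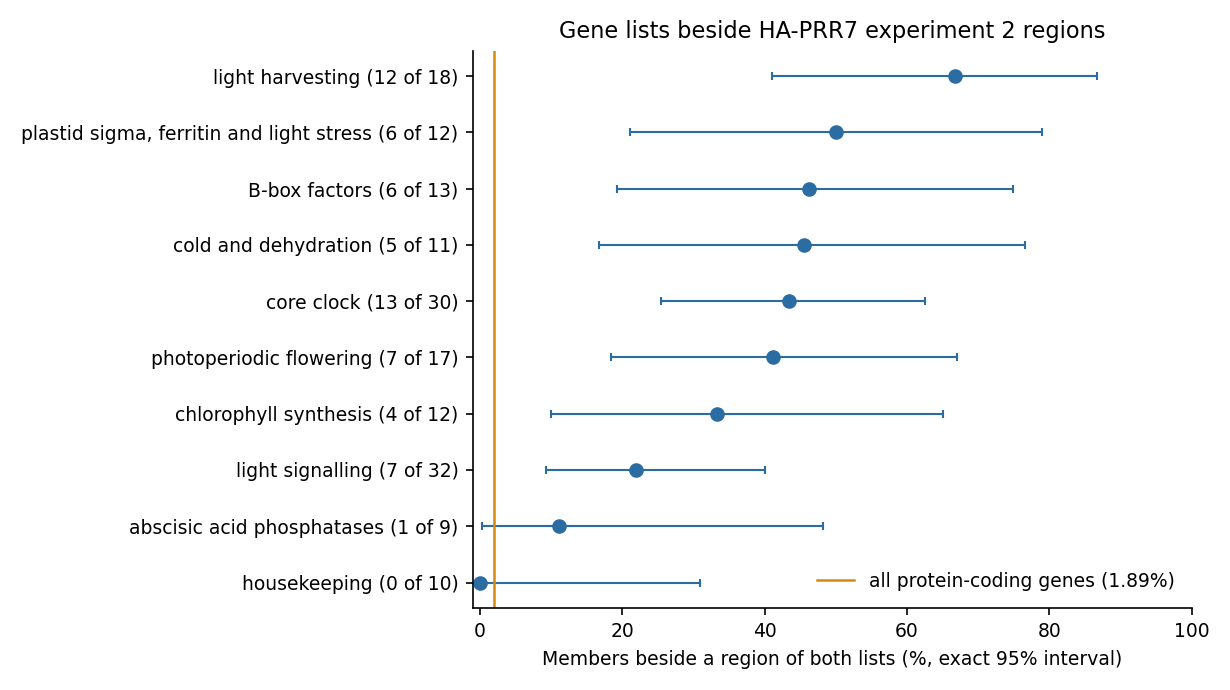
Share of the members of each gene list that hold or lie within 3000 bp of a maximum of the regions in both lists, with exact 95% intervals, and a line at the 1.89% of all protein-coding genes. Light-harvesting genes are highest at 66.7%, and the intervals of the abscisic acid phosphatases and the housekeeping genes include the line.

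Overlap with HA-PRR7 experiment 1 was most frequent among the regions with the most IP tags. Of the 294 nuclear regions, 67 (22.8%, interval 18.1% to 28.0%) overlapped a region of that IP. By the 4 groups of KC IP tags these were 38 of 74 in the highest (51.4%, interval 39.4% to 63.1%), then 13 of 73 (17.8%), 9 of 73 (12.3%) and 7 of 74 (9.46%, interval 3.89% to 18.5%). The median width in KC was 414.5, 306, 247 and 189 bp in the same order, and since an overlap of 1 bp was enough, the part of width in this was not tested. The median was 124 IP tags in KC for overlapping regions and 75 for the rest. Of the 20 highest nuclear regions, 17 overlapped, the exceptions being LHCB1.1 with LHCB1.3, AT1G19500 with AT1G19490, and LHCA1. The share of maxima between genes but near one was 52.7%, 50.7%, 46.6% and 52.7% in the same groups, with overlapping intervals.

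In the highest group by tags, 9 of 12 regions at clock genes overlapped experiment 1, as did 4 of 4 at plastid sigma, ferritin and light stress genes and 3 of 3 at B-box genes. At light-harvesting genes it was 0 of 7. The regions of a list are few and some are neighbours, and the difference was not tested. Of the single-list nuclear regions, 9 of 78 in KC alone (11.5%, interval 5.41% to 20.8%) and 2 of 56 in TL alone (3.57%, interval 0.435% to 12.3%) overlapped experiment 1. Overlaps with untagged prr7-3 numbered 3 of 83 in KC alone and 2 of 59 in TL alone.

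**Figure D5:**
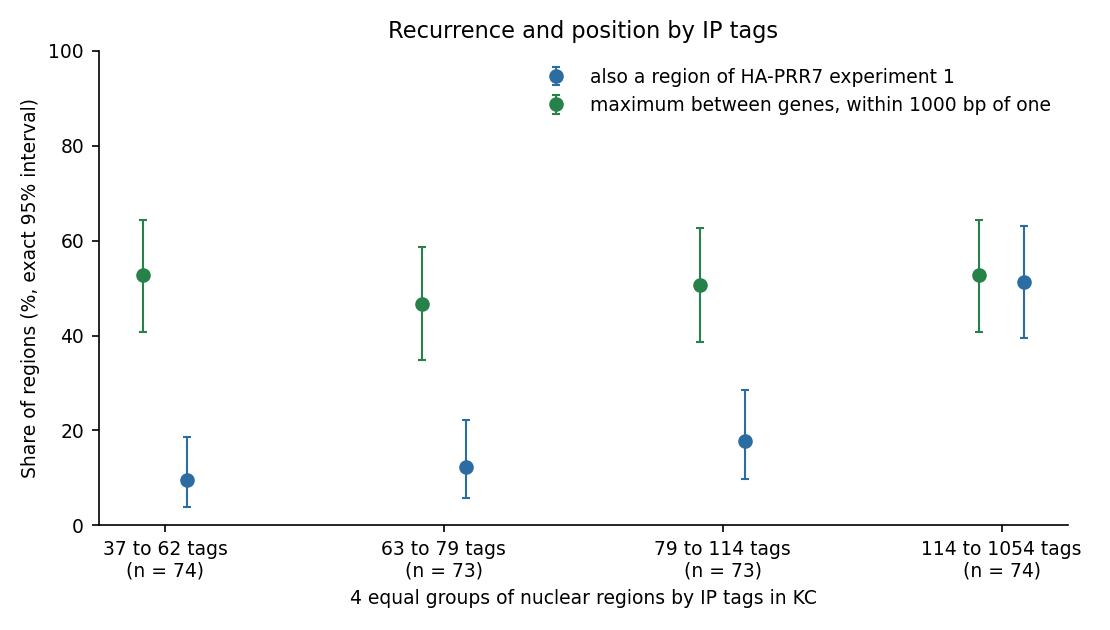
Share of nuclear regions in both lists that overlap a region of HA-PRR7 experiment 1, and share with the maximum between genes and within 1000 bp of one, by 4 groups of IP tags in KC from low to high, with exact 95% intervals. The overlap is 9.46% in the lowest group and 51.4% in the highest, while the share near genes stays between 46.6% and 52.7%.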

How the data were processed

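Anti-HA ChIP-seq region lists of HA-PRR7 experiment 2 were used as deposited. The submitters' processing notes name Bowtie and the TAIR10 build; no version, peak caller or caller setting is given in the sources used here. For each region the deposited lists give the signal of IP and control at the maximum, their ratio as a fold enrichment, and whole numbers of IP and control tags, per the file headers. Region values are the authors' and serve only to describe regions of a list and to rank those of both lists among themselves. Dividing the IP signal by the control signal, raised to 1 where lower, gave the fold within 1% in 100% of regions of both lists. The depth ratio of IP to control was taken from the deposited tag enrichments; library totals are unknown.

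Python 3.11.15 with pandas 2.3.3, numpy 2.4.6, scipy 1.17.1 and matplotlib 3.10.9 was used. Regions were shared at 1 bp of overlap. Shares carry exact Clopper-Pearson intervals and tag ratios exact conditional binomial intervals (95%), which cover counting error only; PCR copies are not independent molecules. For the median ratio, control tags under a floor of 3 per region were raised to it. With 1 IP there is no replicate and no test. The overlap step, the assignment of genes inside or beside a maximum and the ratio interval recovered the known answers on simulated data. The ratio was simulated with more control tags than most regions held, and the position classes were not simulated. Genes (27444 protein-coding) came from a RefSeq table of assembly TAIR10.1 and were used for names and position classes only, with limits of 3000 bp and 1000 bp; the table holds no strand or sequence, so motifs were not searched. Chromosome lengths and gene positions of that assembly were taken to fit TAIR10.

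The regions and the 10 gene lists were chosen with earlier results of these data known. Named genes were those at the 30 regions of both lists with the most IP tags, the 5 with the fewest, the 5 with the most control tags, the 5 with the largest shift of rank between fold and IP tags, the 5 highest of each single-list set, organelle regions, and list members with a region in both lists. Others are stated to have been named after their values were seen, as were the members with no region and UBQ10 and GAPC1.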

Additional observations from a re-analysis of the deposited data

How the results depend on the processing

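Of 19 values of the main results under other settings, 15 stayed within 1.5 times of the value reported or within its interval, and 4 moved. Regions in both lists numbered 289 to 294 under stricter overlap or without organelles, and 126 when each had to reach the median fold of its own list, which removes regions by construction. The median ratio of IP to scaled control was 6.19 with the control floor at 1 tag in place of 3 (2.23), as a lower floor must give. The 20 highest regions by IP tags shared 13 with the 20 highest by IP tags per 100 bp, 14 with those by fold and 17 with those by TL tags. The overlap with HA-PRR7 experiment 1 was 15.3% with 50% of both regions in common, against 22.8%, fewer overlaps counting by construction. Of 30 counts of list members, 26 stayed alike and 4 moved: a limit of 1000 bp and the nearest gene alone each gave 4 light signalling genes (7 before) and 0 abscisic acid phosphatases (1 before). The background for all genes was 1.25% and 1.01% under these limits. No paired analysis was possible because a single IP gives no test, and for the same reason no replicate could be left out. The G-box windows were not run, for want of a sequence. Depth limits the control, with 0 or 1 tags in most regions, so ratios of single regions have wide intervals and folds of single regions rest on few control tags.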
